A study of Homo sapiens with 6 samples.

Results

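Nuclear genes for oxidative phosphorylation were followed as a set in DRIP-seq data on R-loops, stretches where RNA is paired with one DNA strand and the other strand is displaced. The members were the protein-coding genes of the RefSeq table of GRCh38 on nuclear chromosomes whose symbol begins with NDUFA, NDUFB, NDUFC, NDUFS, NDUFV, UQCR, ATP5 or COX4 to COX8, together with SDHA, SDHB, SDHC and SDHD. This rule gave 96 of 20033 genes: 38 of complex I, 8 complex I assembly factors that the prefix NDUFA takes in (NDUFAF1 to NDUFAF8), 4 of complex II, 9 of complex III, 17 of complex IV and 20 of complex V. The cells were SH-SY5Y, a human neuroblastoma line, infected with a lentivirus carrying the hairpin shT2 or the hairpin shNC3, selected with puromycin at 2 µg/mL for 2 weeks and kept at 1 µg/mL. Each hairpin had 3 samples of its selected population, with no label stating that they came from separate cultures. The p-values therefore speak only of the spread among these 6 samples, and that spread may be technical. The study lowered TDP-43, which binds RNA in the nucleus. Which hairpin is directed at it is not written in the labels, and from the names shT2 was read as the knockdown and shNC3 as the control; directions are given as shT2 relative to shNC3.

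Complex I (NADH dehydrogenase) and complex II (succinate dehydrogenase) pass electrons to ubiquinone, complex III carries them to cytochrome c, and complex IV (cytochrome c oxidase) hands them to oxygen. Complexes I, III and IV pump protons, and complex V (ATP synthase) uses the proton gradient to make ATP, on which neurons depend heavily. Most subunits are encoded in the nucleus, and their promoters are known for sites of NRF1, ETS factors such as GABPA, and YY1.

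The value of a gene was its covered length: the base pairs under called peaks between 2 kb before and 2 kb after the gene, scaled so that every sample had the same total. Covered length is not signal strength, and since DNA was cut with restriction enzymes before the pulldown, a peak may end where a fragment ends. The lists held 49068 to 50971 peaks per shT2 sample and 42717 to 45390 per shNC3 sample, and the depth recovered from them was 1.90 times as high in shT2 (3.08 to 3.46 fragments per base) as in shNC3 (1.65 to 1.79). Depth therefore moved with the hairpin. TARDBP, the gene of TDP-43, was covered over 9.36, 8.69 and 7.64 kb with shT2 and 11.8, 11.9 and 10.7 kb with shNC3, which says nothing of its RNA or protein. Genes of the noradrenergic neuroblastoma state, to which the line belongs, had peaks in all 6 samples for 12 of 15 markers, with summed lengths of 144.5 to 153.9 kb with shT2 and 136.8 to 147.2 kb with shNC3. These markers also differed between hairpins: limma called 5 of the 12 tested higher in shT2 and 2 lower, or 58.3%, against 51.3% of all tested genes. Of the 5 embryonic kidney markers, all were at 0 in every sample. Among mesenchymal or Schwann-like markers, of which 10 of 11 had a peak in some sample, 6 of 9 tested were lower in shT2 and 0 higher (7 and 0 at an unadjusted limma p under 0.05), where 27.2% of all tested genes were lower. Their sums were 34.2 to 39.2 kb with shT2 against 73.8 to 82.6 kb with shNC3, COL1A1 went from 14.3 ± 0.78 kb with shNC3 to 0.22 ± 0.19 kb with shT2, and PRRX1 and YAP1 were at 0 in the shT2 samples. The part of depth and of these marker differences in the results on oxidative phosphorylation genes was not tested. Calls made after weak peaks were dropped toward a matched depth are given below, but the widths of the peaks that stayed were not changed.

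The letters around the start site were compared with those of all genes by the share of windows that hold a motif, with no test. RefSeq promoter windows of GRCh38.p14 (250 bases before to 50 after the start) were matched for 78 of the 96 genes. The NRF1 motif CGCNTGCGC, on either strand, was in 24 of these 78 windows (30.8%) against 11.0% of 15842 windows of all genes. The ETS motif CCGGAAG was in 26.9% against 14.2%, and the YY1 motif AAGATGGC in 14.1% against 3.91%. The letters TATAAA were in 8.97% against 9.63%, and the median GC content was 61.0% against 62.7%. Matches of one motif on opposite strands can overlap by all but 1 base and a gene was counted once per motif. The following runs are the 200 bases before the start, 5′ to 3′ on the gene's strand. They are examples from 40 runs that touch no listed gene, and other such runs hold a motif too. The examples include starts under and outside peaks, so they do not give the share of each kind. Capitals mark NRF1 or ETS letters. In the first 3 genes the start site lay under a peak in all 6 samples; in UQCRC1 and NDUFB4 it did in none, and in COX5B in 1 of 3 shT2 and 2 of 3 shNC3 samples.
NDUFA3, chr19:54102655-54102854, plus strand: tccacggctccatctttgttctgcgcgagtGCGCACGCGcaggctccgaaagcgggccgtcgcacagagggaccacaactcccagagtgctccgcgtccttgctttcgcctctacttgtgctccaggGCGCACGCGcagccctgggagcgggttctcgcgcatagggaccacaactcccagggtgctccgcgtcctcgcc
ATP5ME, chr4:674277-674476, minus strand: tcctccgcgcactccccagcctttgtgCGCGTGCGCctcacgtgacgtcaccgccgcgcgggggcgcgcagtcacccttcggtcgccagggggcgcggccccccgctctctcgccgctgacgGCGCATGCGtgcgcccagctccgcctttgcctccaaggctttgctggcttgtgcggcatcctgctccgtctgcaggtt
NDUFA13, chr19:19516025-19516224, plus strand: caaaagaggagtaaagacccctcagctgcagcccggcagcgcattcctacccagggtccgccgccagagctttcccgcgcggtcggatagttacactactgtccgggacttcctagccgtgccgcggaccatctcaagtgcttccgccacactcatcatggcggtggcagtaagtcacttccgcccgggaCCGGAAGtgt
UQCRC1, chr3:48609647-48609846, minus strand: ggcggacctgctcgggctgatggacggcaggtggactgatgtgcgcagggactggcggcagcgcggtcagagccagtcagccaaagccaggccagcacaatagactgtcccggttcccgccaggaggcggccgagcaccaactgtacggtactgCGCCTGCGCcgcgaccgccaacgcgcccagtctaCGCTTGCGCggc
NDUFB4, chr3:120596136-120596335, plus strand: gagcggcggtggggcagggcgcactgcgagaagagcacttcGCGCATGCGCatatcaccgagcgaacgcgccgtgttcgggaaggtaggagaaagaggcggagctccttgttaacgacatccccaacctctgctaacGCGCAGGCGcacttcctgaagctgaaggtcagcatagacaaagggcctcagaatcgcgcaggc
COX5B, chr2:97645862-97646061, plus strand: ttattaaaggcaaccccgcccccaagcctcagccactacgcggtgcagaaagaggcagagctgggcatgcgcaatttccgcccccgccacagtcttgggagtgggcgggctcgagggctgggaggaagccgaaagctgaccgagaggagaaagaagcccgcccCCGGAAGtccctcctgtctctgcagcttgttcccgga
NRF1 letters thus stood both upstream of starts under peaks and upstream of starts outside them. Over the members, they were in 4 of the 16 windows whose start was under a peak in all 6 samples (25.0%) and in 15 of the 42 whose start was under none (35.7%). Over all genes the shares were 13.9% and 8.94%. ETS letters were in 6 of the 16 (37.5%) and 9 of the 42 (21.4%), and over all genes in 22.5% and 10.5%. A match is a description of letters, not of binding.

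Peaks were common at these genes under both hairpins. A peak touched the window in all 6 samples for 70 of 96 members (72.9%), against 46.9% of all genes. Mitochondrial ribosomal protein genes were close to the members, at 70.1%. Their tested windows were covered to a median of 46.1% in shT2 and 43.5% in shNC3, more than those of the members given next. The median member window was also shorter, 14198 against 28130 bp, and a larger share of it was covered: a median of 25.3% in shT2 and 21.2% in shNC3 over the 81 tested members, against 13.5% and 11.4% over all 11769 tested genes. Coverage per window ran from 1.08% to 99.1%. Of 96 members, 12 had no peak in any sample: NDUFA5, NDUFA8, NDUFA9, NDUFA12, NDUFAF2, NDUFAF4, UQCRHL, UQCRB, COX7B2, COX8C, COX6A2 and COX4I2. NDUFB3, NDUFS4 and COX7B had a peak in fewer than 3 samples and were not tested. The windows of NDUFV1, NDUFS8, NDUFAF8 and ATP5ME were at least 90% covered in every sample. Because they could hardly be longer or shorter, the scaling itself gives such windows a negative difference: their log2 differences were -0.18, -0.18, -0.12 and -0.14, beside a median of -0.15 over all 383 tested genes covered to this degree.

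Between the hairpins, 31 of the 81 tested members passed the limma test at an adjusted p under 0.05, or 38.3%, against 51.3% of all tested genes. Of these, 17 were higher in shT2, where 24.1% of all genes were, and 14 were lower, where 27.2% were. The 14 comprise 12 loci, since the read-through genes NDUFC2-KCTD14 and ATP5MF-PTCD1 contain NDUFC2 and ATP5MF. The remaining 50 did not pass. The median log2 difference was -0.02 over members and -0.08 over all tested genes. Unscaled lengths, which follow the deeper shT2 lists, gave 20 higher and 6 lower members and moved the median of all genes to 0.06; the share of higher calls over all genes went from 47.0% to 60.9%. Groups did not overlap for 45 of 81 members, 22 with shT2 above (27.6% of all tested genes) and 23 below (37.4% of them), 65.0% of all tested genes being in either state. Scaling alone put some members among the 23. NDUFB7 (7689 bp), NDUFA3 (7356 bp), NDUFB10 (4852 bp) and ATP5ME (5510 bp) had the same unscaled length in every sample. NDUFA11 was longer in every shT2 sample than in any shNC3 sample before scaling. For the setting named equal depth, each peak's summit and background were rescaled to the lowest recovered depth (1.65 fragments per base). Peaks that no longer reached the lists' p-value were dropped. This left 44172 to 47496 peaks per shT2 list and 42716 to 44438 per shNC3 list. Calling was not repeated and the peaks left kept the widths called at full depth, so covered length itself was not brought to equal depth. In this setting 28 of the 31 calls were made again in the same direction, the exceptions being NDUFV1, NDUFA13 and COX5B.

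**Figure D1:**
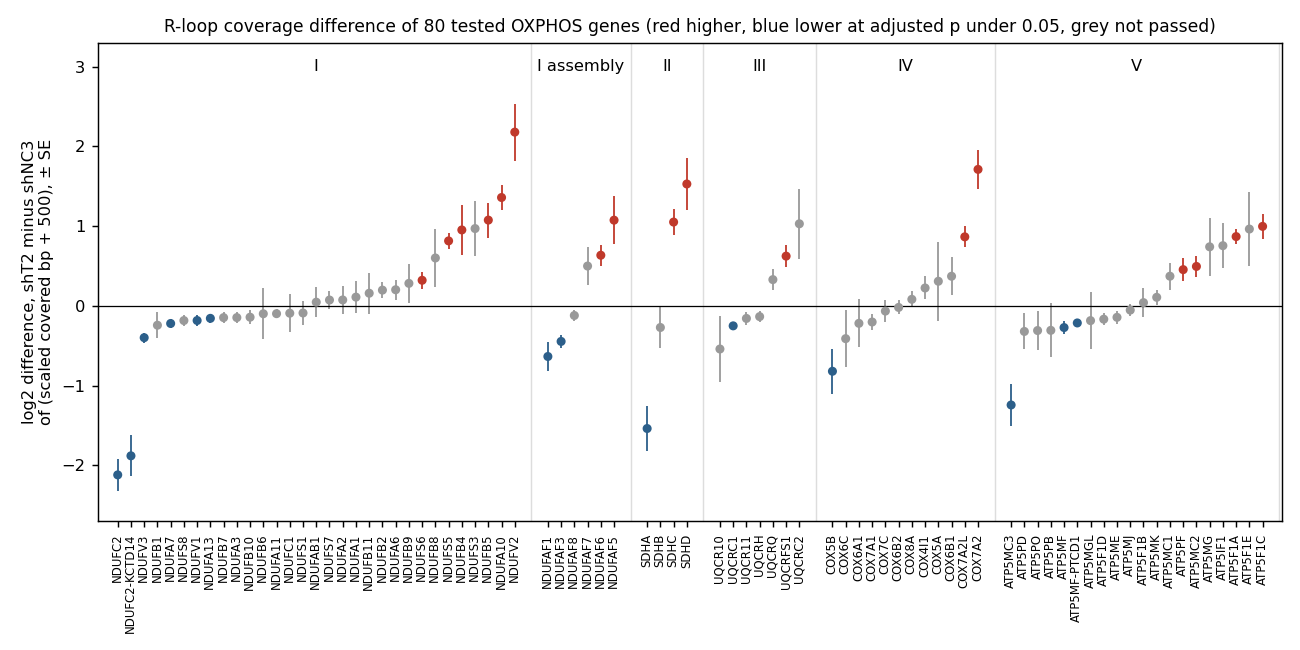
Log2 difference (shT2 minus shNC3) of scaled covered length plus 500 bp for 80 of the 81 tested genes, by complex, with the limma standard error; red genes were higher and blue genes lower at an adjusted p under 0.05, and grey genes did not pass. Each complex holds genes on both sides of 0; the value drawn for COX7A2, at 0 in the shNC3 samples, depends on the 500 bp added.

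Summed over its members, complex II was longer in shT2. Its 4 genes together were covered over 12.5, 10.1 and 13.7 kb in the shT2 samples and 7.40, 8.79 and 6.25 kb in the shNC3 samples, 12.1 ± 1.82 against 7.48 ± 1.27 kb (SD, n = 3 each), a log2 ratio of 0.69. All shT2 samples were above all shNC3 samples, although the members moved in different directions and SDHC alone held 51.2% of the sum. The ratio was 0.30 with peaks of 5-fold enrichment or more, 0.41 with bases of 1 gene only and 2.31 at the gene ends. Complex IV sums were 34.7, 31.8 and 32.9 kb with shT2 and 29.0, 31.5 and 30.0 kb with shNC3, a log2 ratio of 0.13 with no overlap. The means were 33.1 ± 1.45 and 30.2 ± 1.23 kb. COX7A2L, its longest member, held 14.8% of the sum, at 6.16 ± 0.45 kb with shT2 and 3.18 ± 0.60 kb with shNC3. The gap at this gene was thus about as large as that of the whole complex. The complex IV ratio was -0.0031 when only the 2 kb on each side of the gene ends were counted. Complex III sums were 36.3, 37.3 and 37.2 kb with shT2 and 38.7, 40.2 and 38.1 kb with shNC3, a log2 ratio of -0.08 with no overlap; without scaling the sign turned, to 0.08.

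The sums of complex I (189 ± 3.69 kb with shT2 and 192 ± 2.37 kb with shNC3), of the assembly factors (26.0 ± 1.22 and 24.2 ± 1.42 kb) and of complex V (104 ± 0.56 and 103 ± 2.12 kb) overlapped between hairpins. In complex V, 40.8% of the summed length was that of the read-through gene ATP5MF-PTCD1. With it left out, a choice made after seeing the data, complex V was covered over 65.2 ± 0.64 kb with shT2 and 57.3 ± 1.31 kb with shNC3, a log2 ratio of 0.19. Complex I without NDUFC2-KCTD14 gave 187 and 183 kb (0.028). Per length of window and with the read-through genes counted, complex V had the densest coverage (31.2% to 38.8% over the 6 samples, unscaled). Complex III (28.7% to 33.1%) and complex I (17.1% to 20.9%) followed. The window of ATP5MF-PTCD1 was itself covered to 74.7% to 81.2%, and the rank of complex V above complex III depends on that gene. Complexes II (3.76% to 8.80%) and IV (7.47% to 9.61%) and the assembly factors (3.56% to 4.86%) were sparser.

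**Figure D2:**
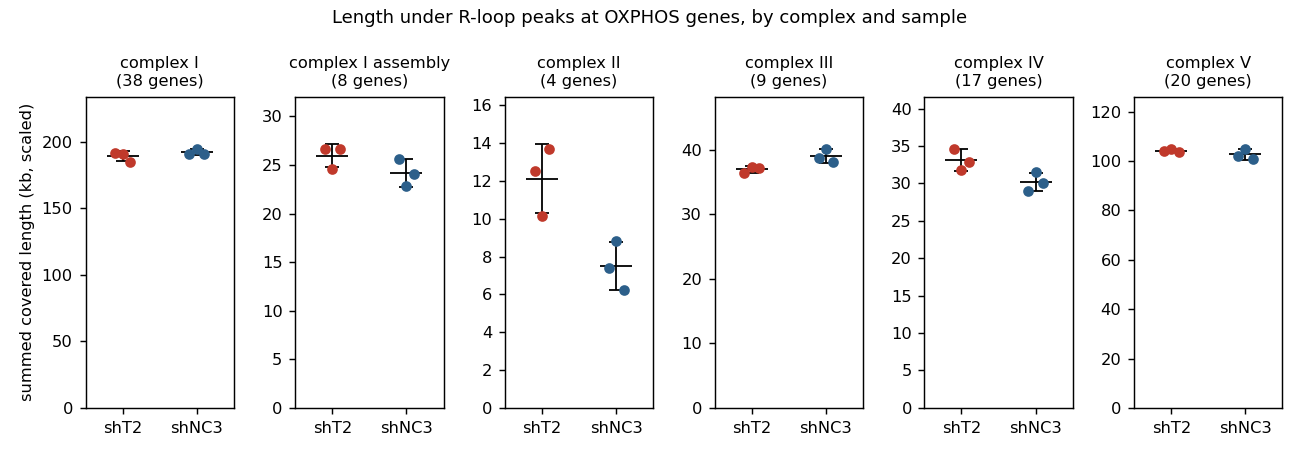
Summed scaled covered length in kb of the members of each complex (each panel with its own axis from 0); points are samples, bars the mean and SD of 3. For complex II the shT2 samples sit between 10.1 and 13.7 kb and the shNC3 samples between 6.25 and 8.79 kb, whereas the points of complexes I and V overlap.

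In complex I, 6 of 32 tested subunit genes were higher in shT2 and 6 lower. Over all tested genes 24.1% were higher and 27.2% lower, shares that stand beside the counts of each complex below as well. NDUFA10, an accessory subunit, was covered over 12.0, 13.9 and 12.1 kb with shT2 and 3.73, 4.45 and 5.93 kb with shNC3 (log2 difference 1.36, SE 0.15, limma adjusted p = 0.00037). The groups lay far apart, but the call was lost with peaks of 5-fold enrichment or more. The peaks that shT2 samples had beyond those of shNC3 were spread along the gene and into its upstream flank. Among the regions inside the gene, those at chr2:239933544-239933983 and chr2:239959309-239960745 had a peak in 3 of 3 shT2 and 0 of 3 shNC3 samples. The highest fold enrichment per sample in these regions was 3.75 to 4.64. NDUFS5, another accessory subunit, was covered over 9.60, 9.67 and 8.80 kb with shT2 and 4.77, 5.94 and 4.68 kb with shNC3 (0.81, SE 0.10, adjusted p = 0.00059). Its samples did not overlap, and it was called under all 17 alternative settings. NDUFV2, a core iron-sulfur subunit, was covered over 1.94, 2.54 and 2.93 kb with shT2, whereas 1 shNC3 sample had 0.60 kb and the other two had none (2.18, SE 0.36). A pair of regions in the first part of the gene, chr18:9103280-9104009 and chr18:9106830-9109248, appeared in the shT2 samples only. The other 3 subunits called higher were NDUFB5 (1.08), NDUFB4 (0.95) and NDUFS6 (0.32). The window of NDUFB5 overlaps that of MRPL47, which was also called higher, and NDUFB5 could not be tested with bases of 1 gene only. The window of NDUFS6 overlaps that of MRPL36, which was called lower (-0.59). NDUFB4 was lost in 9 and NDUFS6 in 8 of 17 alternatives, NDUFS6 being called lower at the gene ends (-0.21, adjusted p = 0.049), and NDUFB5 gave -0.19 with peaks of 5-fold enrichment or more.

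NDUFC2, an accessory subunit of the membrane arm, went the other way. Its window was covered over 1.42, 1.83 and 0.89 kb with shT2 and 8.32, 6.52 and 7.77 kb with shNC3 (-2.12, SE 0.20, adjusted p = 0.00019). No shT2 sample came near the shNC3 range. In its window, 4 regions had peaks in 3 of 3 shNC3 and 0 of 3 shT2 samples (chr11:78071324-78074217, chr11:78075151-78075550, chr11:78077986-78080050 and chr11:78080352-78082041). THRSP and NDUFC2-KCTD14 share this window, so the bases cannot be given to NDUFC2 alone, and counting only bases of 1 gene left it untested. NDUFC2-KCTD14, with 2.39, 2.74 and 1.10 kb with shT2 and 9.33, 7.66 and 8.82 kb with shNC3 (-1.88, SE 0.26), repeats these bases.

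The remaining lower calls in complex I were small. NDUFV1, the core subunit that binds NADH, was covered over 9.28, 8.73 and 8.70 kb with shT2 and 9.68, 10.9 and 10.0 kb with shNC3 after scaling (-0.18, SE 0.07, adjusted p = 0.048). Its window was 92.7% to 100% covered in every sample before scaling, and the call was lost in 12 of 17 alternatives, with unscaled lengths among them. NDUFV3 (-0.40), NDUFA7 (-0.22) and NDUFA13 (-0.16) were the others, and NDUFA13 was lost in 15 alternatives. NDUFS1, the largest core subunit, was covered over 6.97, 6.54 and 4.47 kb with shT2 and 6.16, 6.62 and 6.14 kb with shNC3. These samples overlapped (-0.09, SE 0.15, adjusted p = 0.64; 0.09 without shT2 replicate 3), yet chr2:206117439-206118085 and chr2:206129480-206130073 inside it had peaks in the shT2 samples only.

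Among the assembly factors taken in by the symbol rule, 2 of 6 tested were higher and 2 lower. NDUFAF6 was covered over 9.70, 7.76 and 8.52 kb with shT2 and 6.59, 4.90 and 4.81 kb with shNC3 (0.63, SE 0.13, adjusted p = 0.0065). NDUFAF5, a hydroxylase of the NDUFS7 subunit, was covered over 2.13, 2.06 and 3.12 kb with shT2 and 1.57, 0.52 and 0.73 kb with shNC3 (1.07, SE 0.30). Both had every shT2 sample above every shNC3 sample. NDUFAF3, which joins the module that holds the ubiquinone site, was covered over 4.68, 4.30 and 4.60 kb with shT2 and 6.46, 6.02 and 6.56 kb with shNC3 (-0.45, SE 0.08, adjusted p = 0.0030). NDUFAF1, a factor of membrane arm assembly, was covered over 1.95, 1.89 and 2.32 kb with shT2 and 3.86, 2.63 and 4.01 kb with shNC3 (-0.63, SE 0.18). Neither pair of groups overlapped. Of 17 alternatives, NDUFAF1 was lost in 7, NDUFAF5 in 6 and NDUFAF6 in 2. The windows of DALRD3 and IMPDH2 overlap that of NDUFAF3, which could not be tested with bases of 1 gene only.

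In complex II the membrane anchors and the flavoprotein subunit differed in sign. SDHC, one anchor, was covered over 7.31, 5.59 and 7.89 kb with shT2 and 3.83, 2.82 and 2.63 kb with shNC3 (1.05, SE 0.17, adjusted p = 0.0019). Part of the gap was chr1:161363497-161366656, which begins beyond the higher-coordinate end of the gene and runs past the window. Over this whole region the shT2 samples had 2512, 3160 and 2700 bp under peaks, unscaled, and the shNC3 samples none. Only the bases inside the window counted toward the SDHC value. The window of CFAP126 overlaps that of SDHC, and when peaks under 5-fold enrichment were dropped SDHC gave -0.13 (adjusted p = 0.82). SDHD, the other anchor, was covered over 3.40, 2.84 and 3.90 kb with shT2 and 0.31, 1.13 and 1.31 kb with shNC3 (1.53, SE 0.32, adjusted p = 0.0065). Its shT2 samples were all above its shNC3 samples, and the call was made under every alternative; TIMM8B and NKAPD1 share its window.

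SDHA, the flavoprotein that oxidises succinate, was covered over 0.11, 0.10 and 0 kb with shT2 and 0.86, 1.75 and 0.95 kb with shNC3 (-1.54, SE 0.28, adjusted p = 0.0033). The shT2 samples were close to none, and chr5:262354-262788, late in the gene, had a peak in the shNC3 samples only. The windows of CCDC127 and PDCD6 overlap that of SDHA. The SDHA call was lost at the gene ends, and the gene could not be tested with peaks of 5-fold enrichment or more. SDHA has near-identical pseudogenes, among which reads could be divided; how such reads were treated is not stated in the labels. SDHB, the iron-sulfur subunit, was covered over 1.69, 1.60 and 1.91 kb with shT2 and 2.41, 3.09 and 1.36 kb with shNC3. The groups overlapped (-0.27, SE 0.26, adjusted p = 0.40).

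Complex III had 1 higher and 1 lower call among 7 tested genes. UQCRC1, a core subunit of the matrix side, was covered over 9.83, 9.76 and 9.94 kb with shT2 and 11.8, 11.4 and 12.3 kb with shNC3 (-0.25, SE 0.05, adjusted p = 0.0070). The groups stood apart by a small margin, and without scaling the call was lost. UQCRFS1, the Rieske iron-sulfur protein, was covered over 2.91, 2.66 and 2.88 kb with shT2 and 1.74, 1.58 and 1.63 kb with shNC3 (0.62, SE 0.14, adjusted p = 0.0080). Its groups did not overlap and its call was made under every alternative.

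Complex IV had 2 higher and 1 lower among 12 tested genes. COX7A2, the widely expressed form of subunit VIIa, was covered over 1.48, 1.11 and 0.87 kb with shT2 and had no peak in the shNC3 samples (adjusted p = 0.0010). The region chr6:75242879-75244049 in mid-gene was under peaks in 3 of 3 shT2 samples, and no fold is given against samples at 0. COX7A2L, a related protein known for joining complexes III and IV into supercomplexes, was covered over 6.66, 5.80 and 6.02 kb with shT2 and 3.85, 3.02 and 2.68 kb with shNC3 (0.87, SE 0.13, adjusted p = 0.0016). The shT2 samples were higher throughout, and the call was made under every alternative. The last base of COX7A2L at its 3′ end was under a peak in 3 of 3 shT2 and 0 of 3 shNC3 samples, although a peak of shNC3 replicate 1 began just past it.

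COX5B, a subunit on the matrix side, was covered over 2.07, 0.96 and 0.84 kb with shT2 and 2.25, 2.30 and 3.09 kb with shNC3 (-0.82, SE 0.28, adjusted p = 0.043). Its nearest samples, 2.07 and 2.25 kb, almost met, and the call was lost in 12 of 17 alternatives. The nuclear subunits COX4I1 and COX5A were not called over the full window. COX4I1 was covered over 3.80, 4.36 and 3.58 kb with shT2 and 2.72, 3.88 and 3.29 kb with shNC3 (0.22, SE 0.14, adjusted p = 0.22). It was called higher over the gene span alone (0.52, adjusted p = 0.046) and with bases of 1 gene only (0.755, adjusted p = 0.044), and gave -0.15 at the gene ends. COX5A was listed at 0.31, 0 and 0.90 kb with shT2 and 0, 0.69 and 0 kb with shNC3 (0.31, SE 0.49, adjusted p = 0.62), and the samples overlapped.

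In complex V, 4 of 20 tested genes were higher and 3 lower. The rotary catalytic head showed both called and uncalled subunits. ATP5F1A, the alpha subunit, was covered over 12.9, 12.4 and 10.4 kb with shT2 and 6.10, 6.56 and 6.14 kb with shNC3 (0.87, SE 0.09, adjusted p = 0.00028). ATP5F1C, the gamma subunit of the central stalk, was covered over 4.01, 3.56 and 4.06 kb with shT2 and 1.85, 1.35 and 1.91 kb with shNC3 (1.00, SE 0.15, adjusted p = 0.0016). Neither pair of groups overlapped. At ATP5F1C a region around the start had peaks in all 6 samples, though 1 shT2 sample left the start site itself uncovered, while chr10:7803534-7805575, toward the 3′ end, had 1858 ± 160 bp under peaks in shT2, unscaled, and none in shNC3. Counting only the gene ends lost its call.

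ATP5F1B, the beta subunit that carries the catalytic sites, was covered over 2.64, 3.11 and 2.12 kb with shT2 and 2.61, 2.92 and 2.07 kb with shNC3 (0.04, SE 0.18, adjusted p = 0.86). The hairpins overlapped in total length, and part of that length lay in different places: chr12:56635885-56636921 had peaks in the shNC3 samples only and chr12:56643613-56644185 in the shT2 samples only. The sign of so small a difference turned under 5 alternatives.

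The c-ring of the membrane rotor is encoded by ATP5MC1, ATP5MC2 and ATP5MC3, whose mature peptides are the same, and their R-loop coverage went different ways. ATP5MC2 was covered over 5.92, 5.01 and 6.02 kb with shT2 and 4.26, 3.22 and 4.17 kb with shNC3 (0.49, SE 0.13, adjusted p = 0.015). ATP5MC3 had 0, 0.27 and 0 kb with shT2 and 0.92, 0.85 and 0.84 kb with shNC3 (-1.24, SE 0.26, adjusted p = 0.0066). ATP5MC1 had 2.08, 1.82 and 2.13 kb with shT2 and 1.58, 1.28 and 1.47 kb with shNC3 and was not called (0.37, SE 0.17, adjusted p = 0.10), except higher without scaling. In each of the 3 genes the groups did not overlap, with ATP5MC3 alone lower in shT2. The call of ATP5MC2 was lost and its sign turned at the gene ends (-0.09), and ATP5MC3 could not be tested over the gene span alone.

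ATP5PF, a subunit of the peripheral stalk, was the fourth higher call (0.45, SE 0.14) and its window overlaps that of GABPA, the gene of an ETS factor. ATP5MF, a membrane subunit, was lower (-0.27, SE 0.09), as was ATP5MF-PTCD1, with 38.5, 39.3 and 39.3 kb with shT2 and 43.7, 47.4 and 45.2 kb with shNC3 (-0.21, SE 0.04, adjusted p = 0.0034). These windows also hold BUD31, CPSF4 and PTCD1, and both calls were lost without scaling.

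**Figure D3:**
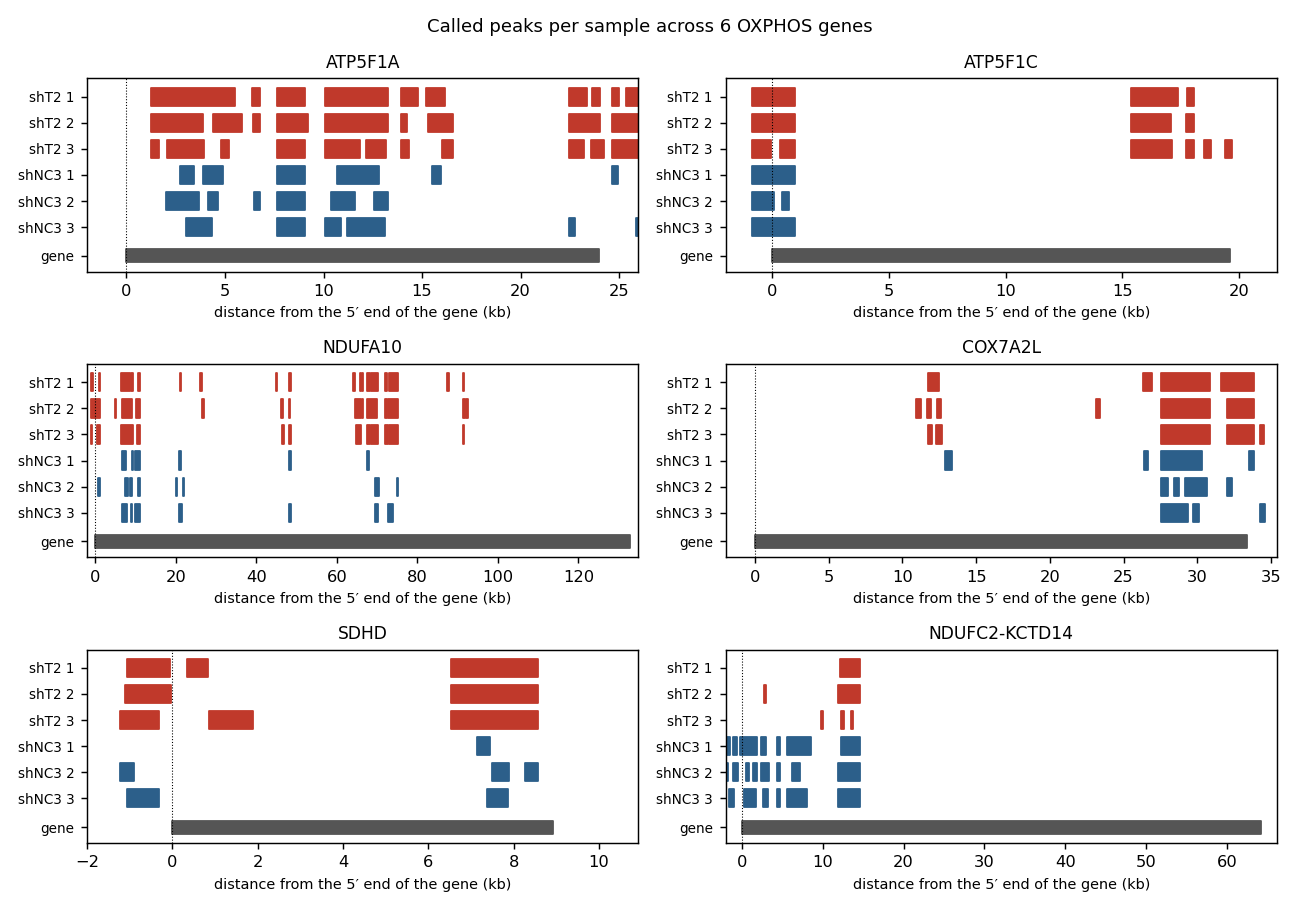
Called peaks of each sample (red shT2, blue shNC3) across 6 genes, drawn against the distance in kb from the 5′ end of the gene (grey bar), with 2 kb on each side. At ATP5F1C blocks near the start are in all samples and the block near the 3′ end in the shT2 samples only; at NDUFC2-KCTD14 several blocks near the start are in the shNC3 samples only.

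Merging peaks of all samples gave 344 distinct regions that touch a member window. Of these, 108 (31.4%) were present in all 6 samples, against 20.6% of 75622 regions genome-wide. Regions in 3 of 3 shT2 and 0 of 3 shNC3 samples numbered 20 (5.81%, against 5.86% genome-wide), and the opposite kind 8 (2.33%, against 2.85%). Both shares were near the background. The 20 regions had a median width of 708 bp and fell in 15 members; 12 lay inside a gene without its start site, 4 in the flanks, 1 over a start site (ATP5F1E), and 3 in genes without a start in the promoter table. Of the 8, 1 overlapped a start site, that of NDUFC2-KCTD14, 5 were elsewhere in a gene and 2 in flanks.

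The start site was under a peak in all 6 samples for 16 of 78 members (20.5%, against 14.3% of all genes) and in none for 42 (53.8%, against 64.3%). For mitochondrial ribosomal protein genes it was under a peak in all 6 samples at 29.0%. The 16 were NDUFA7, NDUFS6, NDUFA13, NDUFS8, NDUFA3, NDUFB2, NDUFB10, NDUFB1, NDUFS1, NDUFAF7, NDUFAF8, UQCRQ, UQCRH, COX7C, ATP5PF and ATP5ME. No member start was under a peak in 3 of 3 samples of one hairpin and 0 of 3 of the other, a pattern seen at 2.97% of starts genome-wide. At the gene end, 20 members had a peak in all 6 samples (25.6%, against 14.6%). The ends of COX7A2L and ATP5F1A were under peaks in the shT2 samples only (2.56%, against 1.95% for either hairpin genome-wide).

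Averaged by position, a peak covered the bases just downstream of the start in 31.6% of members in shT2 (range 29.5% to 34.6% over samples) and 29.1% in shNC3 (26.9% to 30.8%). Over all genes these were 22.6% and 24.6%. Just past the gene end, members were at 34.6% in shT2 (32.1% to 35.9%) and 28.2% in shNC3 (25.6% to 29.5%), and all genes at 21.1% and 19.0%. At the end the members' sample ranges did not overlap, nor did those of all genes (20.9% to 21.4% and 18.6% to 19.4%); at the start the members' ranges did overlap.

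**Figure D4:**
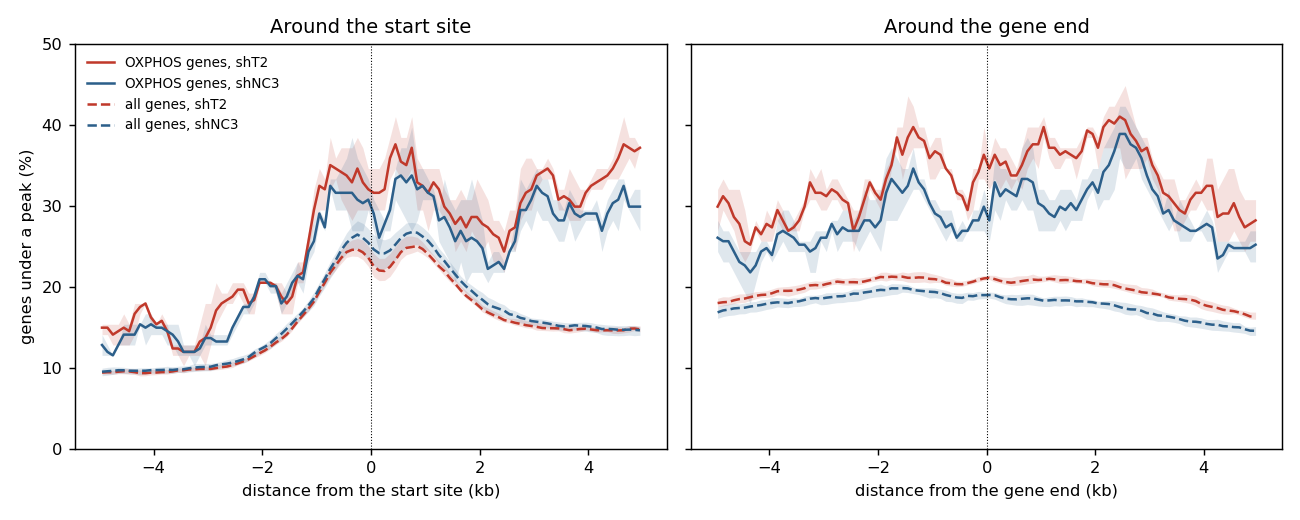
Share of genes in percent under a peak by distance in kb from the start site (left) and the gene end (right), for the 78 members (solid) and 15842 genes (dashed); lines are means of 3 samples and bands their range. Members lie above all genes at both sites, and just past the gene end the shT2 line of the members is at 34.6% and the shNC3 line at 28.2%.

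Genes that assemble or serve the complexes were read in the same fit, in which 24.1% of all tested genes were higher in shT2 and 27.2% lower. The counts in these short lists are to be read beside those shares. Among the other complex I assembly factors, 2 of 9 tested were higher and 0 lower (3 and 0 at an unadjusted limma p under 0.05): TIMMDC1 at 3.57 ± 1.05 kb with shT2 and 0.23 ± 0.20 kb with shNC3 (2.49) and COA1 at 11.9 ± 0.79 and 7.38 ± 0.42 kb (0.65). Among complex III assembly factors, 3 of 8 were higher and 0 lower (also 3 and 0 unadjusted). TTC19 was at 11.9 ± 0.77 and 4.43 ± 0.43 kb (1.33), UQCC1 at 12.2 ± 1.37 and 3.13 ± 1.06 kb (1.85) and UQCC6 at 4.41 ± 0.32 and 2.42 ± 0.43 kb (0.76). For complex II, 1 of 2 tested factors was lower: SDHAF1, which helps place iron-sulfur clusters in SDHB, was at 0 in the shT2 samples and 1.47 ± 0.81 kb with shNC3.

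Complex IV assembly factors had 7 higher and 3 lower of 20 tested. COA3 was at 0.53 ± 0.02 and 2.83 ± 0.27 kb (-1.69), COX20 at 8.10 ± 0.52 and 4.31 ± 0.37 kb (0.84) and COX16 at 2.17 ± 0.28 and 0.32 ± 0.33 kb (1.77). Of 4 tested ATP synthase assembly factors, limma called 0, and 0 also at an unadjusted p under 0.05. Electron carriers and their reductases had 4 higher and 4 lower of 15. CYCS, the gene of cytochrome c, was at 2.81 ± 0.72 and 0.61 ± 0.28 kb (1.59), and the ubiquinone synthesis genes COQ8B (-0.29) and COQ4 (-0.30) were lower. The other called genes of ubiquinone synthesis, named after their values were seen, went both ways: COQ6 (1.36), COQ3 (1.09) and PDSS1 (0.67) were higher and COQ9 (-0.71) was lower.

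Regulators of the pathway had 4 higher and 3 lower of 13. POLRMT, the mitochondrial RNA polymerase, was at 5.47 ± 0.33 and 12.6 ± 0.94 kb (-1.13). TFB1M and TFB2M, related factors of mitochondrial ribosomal RNA methylation and transcription, were at 5.51 ± 1.65 and 0.15 ± 0.26 kb (3.24) and at 7.31 ± 1.47 and 0.79 ± 0.63 kb (2.69). Mitochondrial ribosomal protein genes, a set of like size, had 24 of 64 tested called (37.5%), 15 higher and 9 lower, with a median of -0.04. MRPS22 (1.89 ± 0.32 kb) and MRPL30 (2.26 ± 0.62 kb) had peaks in the shT2 samples and none in the shNC3 samples, and MRPL47, next to NDUFB5, was at 5.60 ± 0.76 and 0.73 ± 0.35 kb (2.35). Both the share called and the median lay close to those of the oxidative phosphorylation genes; the difference between the sets was not tested.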

How the data were processed

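DRIP-seq with the S9.6 antibody gave 1 deposited peak list for each sample. The build hg38 and the tools MACS2 2.2.6, Bowtie2 2.4.4 and SAMtools are listed in the submitters' processing notes, without their settings. The deposited lists give, per peak, the authors' integer score, a fold enrichment (ratio over background), and −log10 p and −log10 q-values. No peak has a q-value above 0.01. Which control entered the calling is not given in the labels or files. Fold and p-value were used to recover depth, rank peaks and thin lists; the score was not used.

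From these lists, covered length per gene window (the gene with 2 kb added at both ends) was computed with Python 3.11 tools, scaled to the mean total of the 6 samples, and log2(bp + 500) was the response in limma 3.58.1 under R 4.3.3 (trend and robust eBayes, no covariates). Genes covered in at least 3 samples were tested (11769), with Benjamini-Hochberg adjustment over all of them and a threshold of 0.05. Log2 differences understate changes of short coverage. The code was tested on simulated data. Members of one locus share bases: 75 of 96 windows overlap another gene's window. Start sites and sequences are RefSeq's (GRCh38.p14), and names come from the RefSeq gene table.

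Members, lists and tests were chosen with earlier results of these data known, and no test was made over a list. The rule for names was: every member past the threshold; with every sample's value, per complex, the 2 per direction with the smallest p whose groups do not overlap, the member with the longest coverage, any with peaks under 1 hairpin alone, and NDUFV1, NDUFS1, SDHA, SDHB, SDHC, SDHD, UQCRC1, UQCRFS1, COX4I1, COX5A, ATP5F1A and ATP5F1B; and up to 3 called members of each other list. The values of 1 member are not reported here. ATP5MC1, ATP5MC2 and NDUFV2 were given in full after their values were seen. Samples of the same number did not deviate together (correlations -0.02, -0.06 and -0.01), so numbers were not taken as pairs.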

Additional observations from a re-analysis of the deposited data

How the results depend on the processing

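Under the 17 alternative settings, the 31 calls were made again for 5 genes every time: NDUFS5, SDHD, UQCRFS1, COX7A2L and ATP5F1A. Of the 31, 22 were called again in the same direction without scaling, 15 with peaks of at least 5-fold enrichment, 15 at the gene ends, 22 with bases of 1 gene only (fewer genes could be tested) and 28 at equal depth. Calls were also gained, among them COX4I1 in 2 settings and NDUFS3 in 6. In the other settings with all 6 samples it was 25 to 30, and leaving out 1 sample 22 to 25. With the replicate number as a block, which is no known pairing, 27 were called again and members gave 17 higher and 12 lower. Leaving out 1 sample at a time gave 13 to 17 members higher and 8 to 12 lower, with 2336 to 2746 genes higher and 2648 to 2976 lower of all tested, where the full set gave 2842 and 3199; the fewest lower members (8) were without shT2 replicate 2.

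Counts moved by more than 1.5 times for lower members without scaling (6), with 5-fold peaks (6), at gene ends (9, with 10 higher) and with bases of 1 gene (7), and for all genes without scaling (2044 lower), with 5-fold peaks (1843 higher, 1955 lower) and at gene ends (1572 higher). The cause was not tested.

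Log2 ratios of summed length moved beyond their SD as follows. Without scaling: complex I 0.14, assembly factors 0.25, III 0.080, IV 0.29, V 0.18. With 5-fold peaks: I 0.026, assembly -0.038, II 0.30. With the same number of peaks: I 0.0092. At equal depth: I 0.0037, V 0.045. At gene ends: assembly -0.081, II 2.31, III -0.011, IV -0.0031, V 0.046. Over the gene span alone: assembly 0.36, II 0.42, IV 0.31. With bases of 1 gene: I 0.16, assembly 0.019, II 0.41, IV 0.25, V 0.45. Without the read-through genes, added after seeing the data: I 0.028, V 0.19. Leaving out 1 sample gave -0.032 to -0.0058 for complex I, 0.062 to 0.15 for assembly, 0.58 to 0.83 for II, -0.095 to -0.056 for III, 0.099 to 0.16 for IV and 0.0096 to 0.038 for V.

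Signs turned for NDUFB5 (-0.19) and SDHC (-0.13) with 5-fold peaks, NDUFS6 (-0.21, adjusted p = 0.049), COX4I1 (-0.15) and ATP5MC2 (-0.087) at gene ends, NDUFS1 without scaling (0.056) and without shT2 replicate 3 (0.092; -0.20 to 0.092 leaving out 1 sample), and COX5A without shT2 replicate 3 (-0.069; -0.069 to 0.73). For ATP5F1B they turned with 5-fold peaks (-0.050), the same number of peaks (-0.0019), gene ends (-0.36), and without shT2 replicate 2 (-0.070) or shNC3 replicate 3 (-0.075; -0.075 to 0.16). Depth was 1.90 times higher in shT2, so a region without a peak in shNC3 may not have been detectable at its depth.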
